A study of Mus musculus with 6 samples.

Results

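The genes described here encode the main repressive chromatin machineries of the cell: Polycomb repressive complex 2 (PRC2), Polycomb repressive complex 1 (PRC1), the nucleosome remodelling and deacetylase complex (NuRD) with the histone deacetylases, and the enzymes that write, maintain and remove DNA methylation. They were taken as a list of 42 gene symbols, and every probe that the platform annotation gives to one of these symbols was used. Of the 42 genes 40 had a probe, 82 probes in all out of 45281 on the array, and 36 genes were tested through 60 probes. Hdac1 and Tet2 carried no probe in this annotation and are not analysed here. All probes of Ezh1, Phf1, Cbx7 and Dnmt3a lay among the 50% of probes with the lowest mean signal and were left out of the main test. Tested without that filter in limma, none of these genes passed either, with adjusted p from 0.572 for Ezh1 to 0.963 for Phf1.

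RNA came from whole embryonic kidneys of the mouse at stage E13.5, with 3 arrays of YapCM-/- kidneys and 3 arrays of control kidneys. Both groups were on a mixed background of C57BL/6 and 129S1/SvImJ, and the genotype of the controls is not spelled out further in the labels. The comparison asks which transcripts differ when Yap is deleted in part of the organ. Yap is a coactivator of transcription that Hippo kinases inhibit. The labels neither expand CM nor name a Cre driver. As the study is remembered, CM is the cap mesenchyme, which holds the nephron progenitors, so the bud, stroma and vessels of the mutant organ would still carry the gene. In RNA of a whole organ, fewer cells of a type and less RNA per cell cannot be told apart. The labels do not say whether replicates were separate embryos, litters or pools, and the p-values therefore reflect only how far these arrays scatter, part of which may be technical.

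PRC2 methylates a lysine of histone H3 at silent developmental genes, and PRC1 binds that mark and ubiquitinates histone H2A. NuRD couples a chromatin-remodelling ATPase to histone deacetylation and to readers of methylated DNA, and DNA methyltransferases and TET enzymes set the methylation of cytosines. In the embryonic mouse kidney, PRC2, NuRD and the class I deacetylases are known to be needed by nephron progenitors, where they help to hold back differentiation genes and keep the progenitor pool.

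Values are log2 bead signals that were already normalized between arrays, with a median of 7.30, and they carry no visible background subtraction, so differences of dim probes are understated. Yap1 itself had 8.91, 8.72 and 8.99 in YapCM-/- kidneys, against 9.75, 9.81 and 9.64 in control kidneys. It fell by 0.86 on the log2 scale (SE 0.0932, limma adjusted p = 0.0102), with all 3 YapCM-/- arrays below all 3 control arrays. Leaving out control replicate 1 or control replicate 3 ended the call, at adjusted p of 0.0954 and 0.0518, as did subtracting the background, at 0.0722. The sources used here do not say whether this probe lies in the deleted part. All 5 stromal markers and 8 of the 9 progenitor markers were among the tested genes, and the remaining progenitor marker had no probe. So were 4 of 4 endothelial, 4 of 5 erythroid, 3 of 4 macrophage, 2 of 4 neural and 1 of 3 adrenal and gonadal markers. Of all 19057 named genes with a probe, 11762 were tested. A gene was tested for its mean signal over all arrays, which does not show that it was present in either group. Of the 8 tested progenitor markers 1 passed in limma, Cited1 at -0.72 (adjusted p = 0.00662). At an unadjusted p under 0.05 were 4, with 3 below control and 1 above, and 5 of the 8 differences were below 0. The list median per array, relative to the control mean, lay between -0.20 and 0.00 in YapCM-/- kidneys and between -0.05 and 0.01 in control kidneys. Of the 4 tested ureteric bud markers 1 passed, Ret at 0.83 (adjusted p = 0.0147). All 4 differences were above 0, with 2 at an unadjusted p under 0.05. The list median per array lay between 0.12 and 0.41 in YapCM-/- kidneys and between -0.08 and 0.13 in control kidneys. Of the 5 early nephron markers 0 passed and 4 were under an unadjusted p of 0.05, 3 below control and 1 above, with a median difference of -0.37. That list's median per array was -0.55, -0.16 and -0.32 in YapCM-/- kidneys, against -0.10, 0.09 and 0.01 in control kidneys. The part of these cell types in the values below was not tested.

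Against this background, none of the chromatin genes passed the test. Of the 36 tested members 0 reached an adjusted p of 0.05 in limma, while 40 of all 22640 tested probes did, which is 0.177%, and 31 of all 11762 tested named genes, which is 0.264%. At an unadjusted p under 0.05 stood 4 members, or 11.1%, with 3 above and 1 below control, beside 1583 of the 11762 genes. Over the 60 member probes the count was 7, or 11.7%, beside 11.5% of all tested probes. The groups did not overlap at 11 member probes, or 18.3%, beside 16.5% of all tested probes. The members thus stood at the rate of the array as a whole on each of these counts. Their median log2 difference was 0.00, with 19 above 0 and 17 below, and that of all 11762 tested named genes was 0.00. The median size of the difference, without its sign, was 0.085 for the members and 0.089 for all tested named genes.

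The intervals show how large a change these arrays leave room for in the whole-organ signal of a gene's brightest probe, without background subtraction. The 95% interval of the difference, not adjusted for the number of genes, lay within 1.5-fold in either direction for 35 of the 36 members, beside 95.1% of all tested named genes. The exception was Phf19, whose interval reached -0.63. For dim members these intervals are too narrow as bounds on the RNA. With the background subtracted, Jarid2 stood at -0.52 (SE 0.253), Hdac9 at 0.37 (SE 0.221) and Tet3 at -0.22 (SE 0.218).

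**Figure D1:**
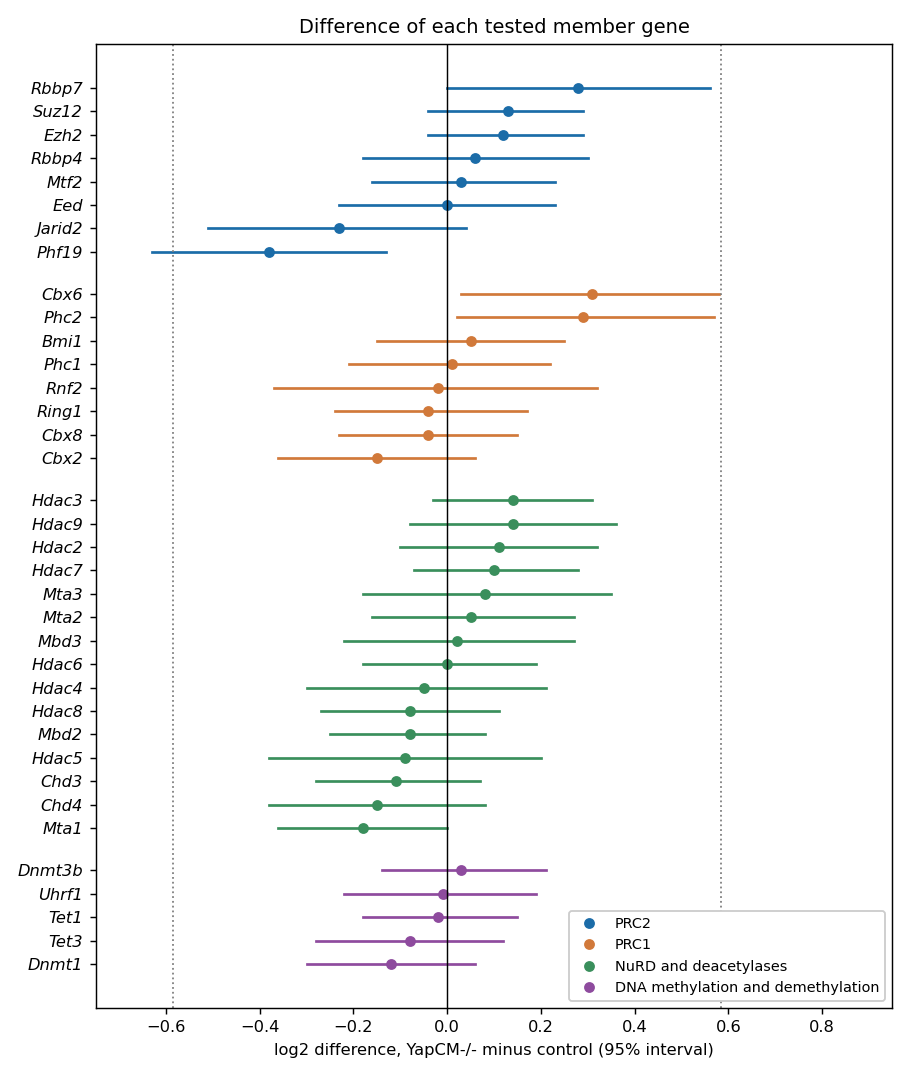
Log2 difference, YapCM-/- minus control, of the brightest tested probe of each of the 36 tested members (points), with its 95% interval (lines), grouped by complex. Dotted lines mark 1.5-fold in either direction. 35 of 36 intervals lie between the dotted lines, and that of Phf19 reaches -0.63. Values are without background subtraction.

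Many members, though not all, had CpG-rich start regions. RefSeq promoter windows of assembly GRCm38.p6, from 250 bases before to 50 bases after a gene's start, were matched by symbol for 36 of the 42 members, in 50 windows. Their median GC content was 65.8%, against 52.7% over all 32851 windows, and the median number of CpG dinucleotides was 24 against 7. Windows of at least 50% GC and a CpG observed over expected of at least 0.6 made up 37 of the 50 member windows and 33.5% of all windows. The exceptions include both Hdac9 windows, with 0 and 3 CpG dinucleotides. A core motif of the TEAD factors, the DNA-binding partners of Yap (GGAATG on either strand), was found in 10% of member windows and in 14.7% of all windows. E2F motifs (TTTCCCGC, TTTGGCGC, TTTCGCGC or TTTGCCGC on either strand), which are bound by the factors that switch on genes of DNA replication, were found in 10% of member windows and in 2.26% of all windows. Among the CpG-rich windows alone, E2F letters stood in 5 of the 37 member windows and in 553 of all 10995, or 5.03%, and the TEAD core stood in 1 of the 37, or 2.7%, and in 9.61% of all. The 5 windows with E2F letters belong to Phf19, Ezh2, Suz12, Dnmt1 and Uhrf1. They are shown because these are the members whose start regions carry the letters of replication-linked genes, with the E2F motif in capitals, 5′ to 3′ on the strand of the gene. In Phf19 and at the upstream site of Dnmt1 the motif is on the opposite strand, so that the capitals show its reverse complement. None of them holds a TEAD core.
The Phf19 window is chr2:34913927-34914226 on the minus strand, with the motif at bases 43 to 50.
Phf19: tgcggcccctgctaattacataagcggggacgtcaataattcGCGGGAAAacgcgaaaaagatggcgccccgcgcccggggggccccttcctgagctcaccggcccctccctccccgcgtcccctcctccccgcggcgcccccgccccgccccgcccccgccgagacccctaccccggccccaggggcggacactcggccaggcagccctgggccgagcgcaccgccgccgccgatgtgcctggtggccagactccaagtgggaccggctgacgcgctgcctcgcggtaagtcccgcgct
The Ezh2 window is chr6:47594981-47595280 on the minus strand, with the motif at bases 254 to 261, just after the start.
Ezh2: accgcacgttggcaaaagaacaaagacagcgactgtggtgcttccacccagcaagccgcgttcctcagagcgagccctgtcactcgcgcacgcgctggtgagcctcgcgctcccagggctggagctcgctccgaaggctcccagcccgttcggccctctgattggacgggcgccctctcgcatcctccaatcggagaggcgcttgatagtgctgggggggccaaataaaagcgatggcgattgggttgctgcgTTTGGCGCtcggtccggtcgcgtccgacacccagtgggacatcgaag
The Suz12 window is chr11:79992856-79993155 on the plus strand, with the motif at bases 32 to 39.
Suz12: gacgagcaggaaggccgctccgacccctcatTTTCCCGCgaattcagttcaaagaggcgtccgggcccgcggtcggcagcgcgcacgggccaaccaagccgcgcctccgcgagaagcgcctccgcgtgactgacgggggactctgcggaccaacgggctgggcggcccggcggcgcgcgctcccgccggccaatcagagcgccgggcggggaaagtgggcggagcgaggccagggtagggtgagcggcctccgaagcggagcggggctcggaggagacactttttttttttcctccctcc
The Dnmt1 window is chr9:20952574-20952873 on the minus strand, with motifs at bases 32 to 39 and 284 to 291.
Dnmt1: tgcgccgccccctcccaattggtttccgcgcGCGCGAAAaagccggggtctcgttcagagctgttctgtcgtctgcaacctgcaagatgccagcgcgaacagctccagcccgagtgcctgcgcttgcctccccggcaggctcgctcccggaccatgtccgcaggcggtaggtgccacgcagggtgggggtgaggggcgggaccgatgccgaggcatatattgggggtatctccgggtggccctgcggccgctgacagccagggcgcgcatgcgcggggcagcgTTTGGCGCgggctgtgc
The Uhrf1 window is chr17:56304063-56304362 on the plus strand, with the motif at bases 66 to 73.
Uhrf1: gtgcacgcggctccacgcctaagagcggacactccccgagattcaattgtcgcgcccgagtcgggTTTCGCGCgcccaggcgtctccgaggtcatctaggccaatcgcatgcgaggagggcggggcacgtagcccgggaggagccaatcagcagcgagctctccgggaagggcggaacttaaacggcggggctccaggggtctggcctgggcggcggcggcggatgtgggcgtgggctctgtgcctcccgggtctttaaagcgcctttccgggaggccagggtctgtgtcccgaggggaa

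These 5 genes did not share a direction on their brightest probes. Those probes differed by -0.38, 0.12, 0.13, -0.12 and -0.01 in the order shown, and none passed (values by array are given with each complex). The directions depend on the probe. Averaged over all tested probes of a gene, Ezh2 stood at -0.02 and Uhrf1 at -0.10, and only Suz12, at 0.13, was above 0. Markers of dividing cells had differences of both signs as well. Of 10 tested, 0 passed in limma and 3 were below control at an unadjusted p under 0.05, with a median of 0.00, from Mcm7, a helicase subunit, at -0.43 (adjusted p = 0.108) to Plk1, a mitotic kinase, at 0.22 (adjusted p = 0.756). The part of dividing cells in the values of the 5 genes was not tested. A motif match is a description of letters, not of binding.

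In PRC2, the catalytic subunit Ezh2, which carries the histone methyltransferase activity, had 10.77, 10.83 and 10.81 in YapCM-/- kidneys, against 10.73, 10.64 and 10.67 in control kidneys. The groups were apart, but by little: the log2 difference was 0.12 (SE 0.0735, adjusted p = 0.577), with an interval from -0.04 to 0.29, and the other tested probe of Ezh2 stood at -0.16 (adjusted p = 0.653). Suz12, the scaffold on which the complex is built, showed the same small size, with 12.25, 12.20 and 12.22 in YapCM-/- kidneys against 12.10, 12.04 and 12.15 in control kidneys. Its groups did not overlap either, at a difference of 0.13 (SE 0.0734, adjusted p = 0.562). Eed, which reads the methyl mark that PRC2 itself lays down, had 10.76, 10.92 and 10.58 in YapCM-/- kidneys, against 10.75, 10.88 and 10.64 in control kidneys. The arrays of the groups were interleaved, and the difference was 0.00 with an interval from -0.23 to 0.23. Ezh1, the paralogue of Ezh2 that predominates in cells that have stopped dividing, was dim throughout, with 7.34, 7.22 and 7.30 in YapCM-/- kidneys and 7.21, 7.15 and 7.09 in control kidneys. Tested without the filter on dim probes it stood at 0.14 (adjusted p = 0.572).

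Rbbp4 and Rbbp7 are histone-binding proteins that PRC2 shares with NuRD. Rbbp4 had 9.91, 10.04 and 10.06 in YapCM-/- kidneys, against 9.70, 10.06 and 10.07 in control kidneys, a difference of 0.06 (adjusted p = 0.891) in which control replicate 1 was the low array. The other tested Rbbp4 probes stood at 0.28 (adjusted p = 0.502) and -0.03 (adjusted p = 0.931). Rbbp7 had 10.46, 10.06 and 10.23 in YapCM-/- kidneys, against 9.90, 9.83 and 10.19 in control kidneys. The groups overlapped, and the difference of 0.28 (SE 0.125) stood at an unadjusted p of 0.0492 and an adjusted p of 0.434. Without YapCM-/- replicate 1 it was 0.17. The other 3 tested probes of Rbbp7 lay between -0.06 and 0.03.

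The accessory subunits decide where PRC2 sits. Phf19, a Polycomb-like protein that tethers PRC2 to CpG-rich DNA, was the member gene with the smallest p. It had 7.99, 7.86 and 7.63 in YapCM-/- kidneys, against 8.39, 8.15 and 8.09 in control kidneys. All 3 YapCM-/- arrays were below all 3 control arrays, with a log2 difference of -0.38 (SE 0.113, interval from -0.63 to -0.13), and the control level was 1.30-fold the YapCM-/- level. The unadjusted p of 0.00711 was the 665th smallest of 22640, and the adjusted p of 0.242 missed the threshold. The difference was -0.28 without YapCM-/- replicate 3, -0.29 without control replicate 1 and -0.65 with the background subtracted. Its relatives did not share that size: Mtf2 differed by 0.03 on its brightest probe (adjusted p = 0.927) and by -0.15 and -0.20 on the others, and both probes of Phf1 were under the filter. Jarid2, a cofactor that recruits PRC2 to chromatin in stem cells, had 7.40, 7.88 and 7.46 in YapCM-/- kidneys, against 7.76, 7.89 and 7.79 in control kidneys. YapCM-/- replicate 2 lay among the controls, and the difference was -0.23 (SE 0.123, adjusted p = 0.515). It was -0.39 without that array (adjusted p = 0.228), -0.14 without YapCM-/- replicate 1 and -0.52 with the background subtracted. Its other probe, annotated to another transcript, differed by 0.12. Over the 8 tested PRC2 genes 0 passed in limma. At an unadjusted p under 0.05 were 2, Rbbp7 above control and Phf19 below. The median difference of the 8 genes was 0.05, with 6 above 0 and 2 below.

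In PRC1, the ubiquitin ligases of the complex are Ring1 and Rnf2. Ring1 had 9.33, 9.38 and 9.27 in YapCM-/- kidneys, against 9.45, 9.20 and 9.45 in control kidneys, a difference of -0.04 (adjusted p = 0.929) on its brightest probe. Its dimmer probe read otherwise, with 7.91, 7.99 and 7.79 in YapCM-/- kidneys and 7.65, 7.53 and 7.58 in control kidneys. There the groups were apart, at a difference of 0.31 (SE 0.0821, adjusted p = 0.204), which had the smallest unadjusted p of all member probes (0.00356). Both probes are annotated to the same transcript. Rnf2 had 8.86, 9.25 and 8.92 in YapCM-/- kidneys, against 8.91, 9.38 and 8.81 in control kidneys, with replicate 2 the highest array of each group and a difference of -0.02 (adjusted p = 0.973). Bmi1, the partner that stimulates the ligase, differed by 0.05 (adjusted p = 0.896).

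The CBX proteins carry the chromodomain that binds the PRC2 mark, and the PHC proteins polymerise PRC1 into larger bodies. Cbx6 had 10.14, 10.15 and 10.03 in YapCM-/- kidneys, against 9.87, 9.50 and 10.02 in control kidneys. The groups were apart by 0.01 at their nearest arrays, and the difference was 0.31 (SE 0.123, unadjusted p = 0.0325, adjusted p = 0.396). Without control replicate 2, the low array, it was 0.16 (adjusted p = 0.703). The other Cbx6 probe was under the filter, with means of 7.10 in YapCM-/- and 7.18 in control kidneys. It differed by -0.08, with the groups apart in the opposite direction. Phc2 had 10.89, 10.77 and 10.85 in YapCM-/- kidneys, against 10.35, 10.42 and 10.84 in control kidneys. Control replicate 3 lay among the YapCM-/- arrays, and the difference was 0.29 (SE 0.123, unadjusted p = 0.0375, adjusted p = 0.409). Without that array it was 0.45 (adjusted p = 0.144). Cbx2 had 8.04, 7.92 and 8.12 in YapCM-/- kidneys, against 8.29, 8.21 and 8.04 in control kidneys, with overlapping groups at a difference of -0.15 (adjusted p = 0.586), which was -0.09 without control replicate 1 and -0.24 with the background subtracted. Cbx8 stood at -0.04 (adjusted p = 0.897) and Phc1 at 0.01 (adjusted p = 0.988), with a dimmer Phc1 probe at 0.28 (adjusted p = 0.311). Cbx7 was under the filter, with a mean of 7.27 ± 0.03 in YapCM-/- and 7.22 ± 0.12 in control kidneys (SD, n = 3 each). Of the 8 tested PRC1 genes 0 passed in limma. At an unadjusted p under 0.05 were 2, Cbx6 and Phc2, both above control. The dimmer probes of Ring1 and Phc1 were also above control at such a p (0.00356 and 0.0154 in limma). The median difference of the 8 genes was -0.01, with 4 above 0 and 4 below.

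**Figure D2:**
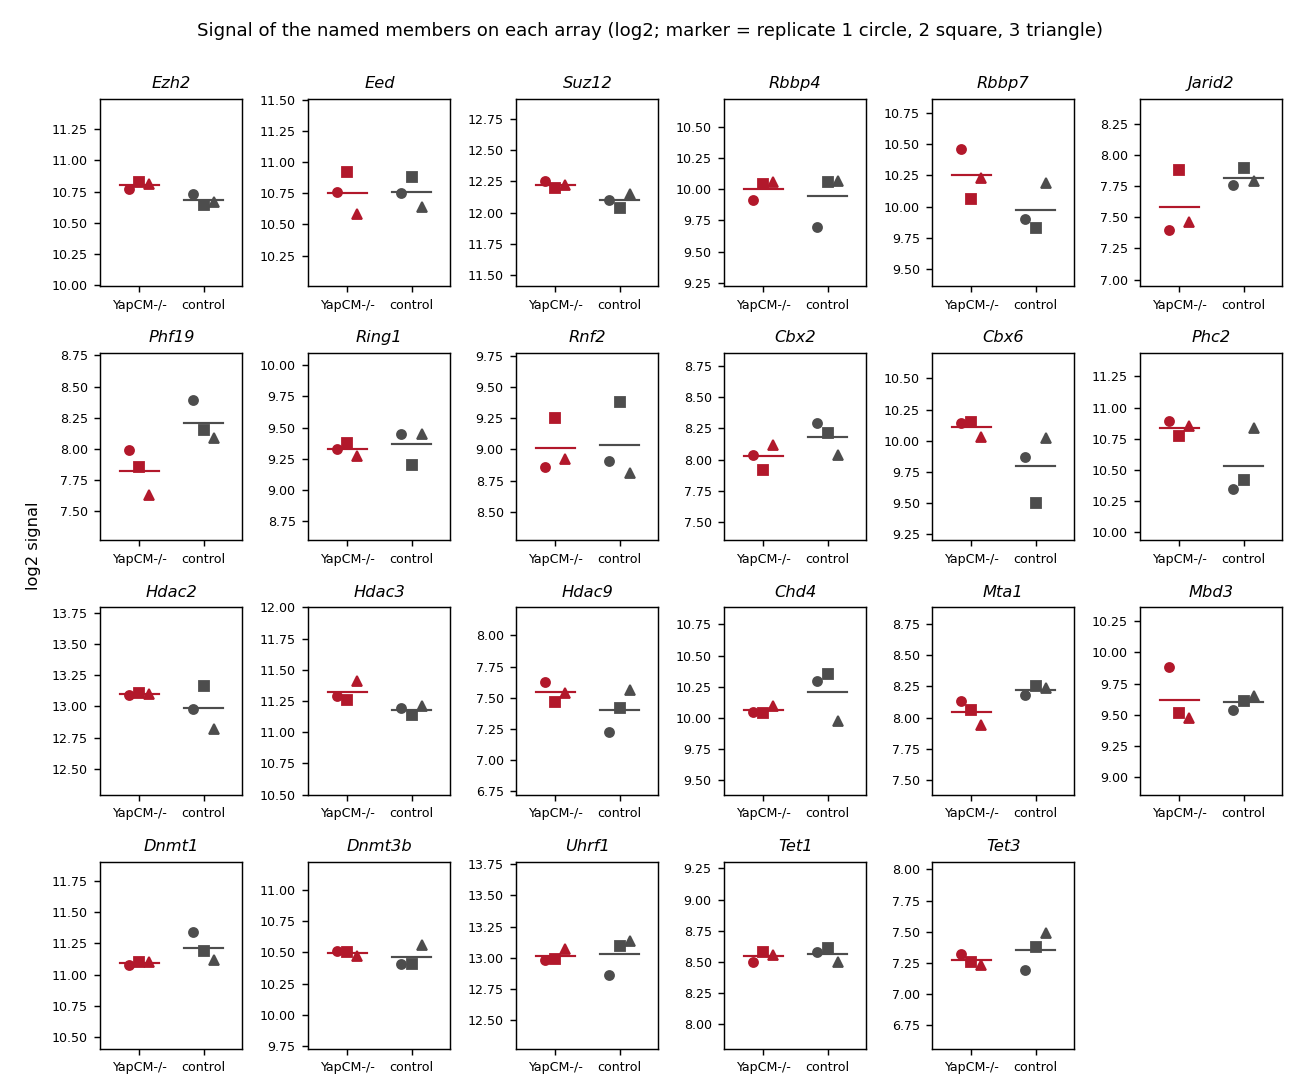
Log2 signal (vertical axis) of the 23 named members that were tested, on each YapCM-/- array (red, left) and each control array (grey, right), with circles for replicate 1, squares for replicate 2, triangles for replicate 3 and a line for the group mean. Each panel spans 1.5 log2 units about its own mean. Only for Ezh2, Suz12, Phf19, Cbx6, Hdac3, Mta1 and Dnmt1 do the groups not overlap, and for none by more than 0.10. Over all 36 tested members these 7 are 19.4%, beside 18% of all tested named genes. Some of the 23 were drawn because of their small p.

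Among the class I deacetylases, which carry out the deacetylation in NuRD and other corepressor complexes, Hdac2 had 13.09, 13.11 and 13.10 in YapCM-/- kidneys, against 12.98, 13.16 and 12.82 in control kidneys. The YapCM-/- arrays lay close together inside the spread of the controls, and the difference was 0.11 (SE 0.0934, adjusted p = 0.712), with 0.03 when control replicate 3 was left out and 0.20 when control replicate 2 was. Hdac3, the catalytic subunit of the NCOR corepressors, had 11.29, 11.26 and 11.41 in YapCM-/- kidneys, against 11.19, 11.14 and 11.21 in control kidneys. The groups were apart at a difference of 0.14 (SE 0.0773, adjusted p = 0.542), which was 0.09 without YapCM-/- replicate 3. Hdac8, the class I enzyme that deacetylates cohesin, had probes of either sign, at -0.08 (adjusted p = 0.783) for the brighter and 0.20 (adjusted p = 0.449) for the dimmer tested one.

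The class II deacetylases, which shuttle between nucleus and cytoplasm or, in the case of Hdac6, act on tubulin, did not pass either. Hdac4 stood at -0.05, Hdac5 at -0.09, Hdac6 at 0.00 and Hdac7 at 0.10, with adjusted p from 0.68 to 0.991. Hdac9 had 7.63, 7.47 and 7.54 in YapCM-/- kidneys, against 7.23, 7.42 and 7.56 in control kidneys. That probe lies just above the filter, its groups overlapped, and the difference was 0.14 (adjusted p = 0.643). It was 0.05 without control replicate 1, 0.22 without control replicate 3 and 0.37 with the background subtracted. The other 3 Hdac9 probes were under the filter.

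In the remodelling module of NuRD, Chd4, the ATPase also called Mi-2 beta, had 10.05, 10.04 and 10.10 in YapCM-/- kidneys, against 10.30, 10.35 and 9.98 in control kidneys. Control replicate 3 was the lowest of the 6 arrays, and the difference was -0.15 (SE 0.103, adjusted p = 0.646), with other probes from -0.21 to 0.07. It was -0.26 without that array (adjusted p = 0.275) and -0.08 without control replicate 2. Its paralogue Chd3 stood at -0.11 (adjusted p = 0.658). Mta1, one of the scaffold proteins that hold the deacetylases in the complex, had 8.13, 8.06 and 7.94 in YapCM-/- kidneys, against 8.18, 8.25 and 8.24 in control kidneys. The groups were apart at a difference of -0.18 (SE 0.0802, unadjusted p = 0.0511, adjusted p = 0.439), or -0.29 with the background subtracted. The other scaffolds did not share that sign, with Mta2 at 0.05 (adjusted p = 0.889) and Mta3 at 0.08 (adjusted p = 0.847). Mbd3, the methyl-CpG-binding-domain protein of NuRD, had 9.88, 9.51 and 9.47 in YapCM-/- kidneys, against 9.54, 9.61 and 9.65 in control kidneys. YapCM-/- replicate 1 was the high array, and the difference was 0.02 (adjusted p = 0.964). Mbd2, which takes its place in another form of the complex and binds methylated DNA, stood at -0.08 (adjusted p = 0.722). Over the 15 tested NuRD and deacetylase genes 0 passed in limma, also at an unadjusted p under 0.05, and the median difference was 0.00, between -0.18 and 0.14.

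Of the DNA methylation genes, Dnmt1, the maintenance methyltransferase, had 11.08, 11.10 and 11.10 in YapCM-/- kidneys, against 11.34, 11.19 and 11.12 in control kidneys. All 3 YapCM-/- arrays lay just below the controls, at a difference of -0.12 (SE 0.0814, adjusted p = 0.628), which was -0.06 without control replicate 1. Uhrf1, which brings Dnmt1 to newly replicated DNA, had 12.98, 12.99 and 13.07 in YapCM-/- kidneys, against 12.86, 13.09 and 13.13 in control kidneys. These groups were interleaved, at -0.01 (adjusted p = 0.972), while a dimmer Uhrf1 probe had groups apart at -0.19 (SE 0.0758, unadjusted p = 0.0343, adjusted p = 0.397). Dnmt3b, a de novo methyltransferase active in early embryos, had 10.51, 10.50 and 10.47 in YapCM-/- kidneys, against 10.41, 10.41 and 10.56 in control kidneys, a difference of 0.03 (adjusted p = 0.923). Its dimmer tested probe differed by -0.11 (adjusted p = 0.721). The signal of Dnmt3a, the other de novo enzyme, was under the filter on all 3 of its probes, the brightest with 7.11, 7.15 and 7.19 in YapCM-/- kidneys and 7.0, 7.11 and 7.09 in control kidneys.

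The TET enzymes oxidise methylcytosine and so start its removal. Tet1 had 8.5, 8.58 and 8.56 in YapCM-/- kidneys, against 8.58, 8.61 and 8.5 in control kidneys, a difference of -0.02 with an interval from -0.18 to 0.15 (adjusted p = 0.961). Tet3 had 7.32, 7.26 and 7.23 in YapCM-/- kidneys, against 7.19, 7.38 and 7.49 in control kidneys, on a probe close to the filter and with overlapping groups (difference -0.08, adjusted p = 0.801). Over the 5 tested genes of DNA methylation and demethylation 0 passed in limma, also at an unadjusted p under 0.05. The median difference of their brightest probes was -0.02, in a range from -0.12 to 0.03.

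How far probes of the same gene spread gives a rough scale for these values. Of the 36 tested members 17 had more than 1 tested probe, and for 12 of them the probes differed in sign. The distance between the highest and the lowest difference within a gene had a median of 0.23 and reached 0.36, for Jarid2. A distance between the extremes of several probes is not the same measure as a single difference, so their sizes cannot be compared directly. For those 12 genes the sign depends on the probe that stands for the gene. Some of the dimmer probes lie near the filter, such as those of Chd3 and Mta3, with control means of 7.34 and 7.38. Averaged over all tested probes of a gene, the difference of Ezh2 was -0.02, that of Ring1 0.14 and that of Rbbp7 0.07.

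**Figure D3:**
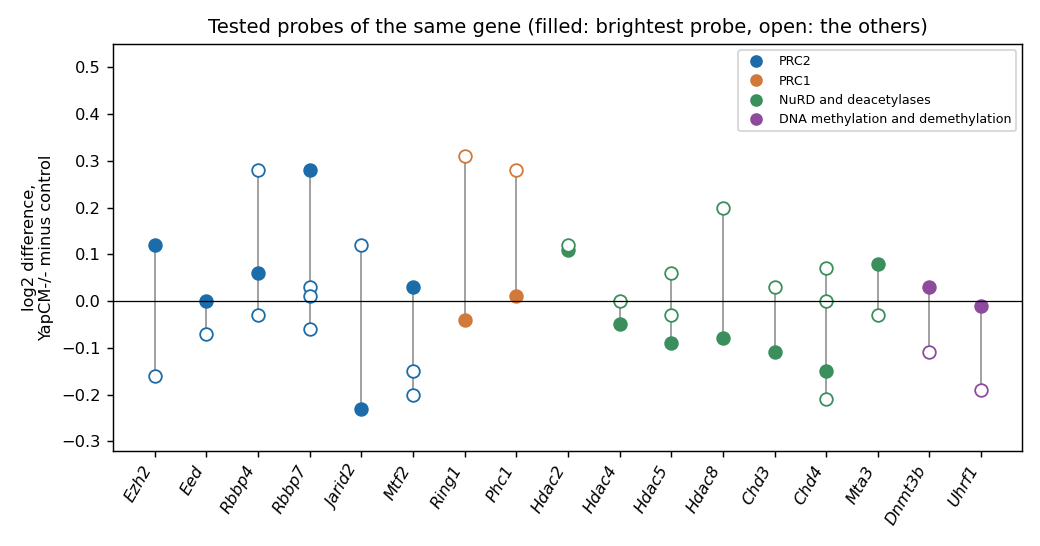
Log2 difference, YapCM-/- minus control (vertical axis), of each tested probe of the 17 members that have several, with the brightest probe filled and the others open. For 12 of the 17 genes the probes lie on opposite sides of 0, and the longest line, that of Jarid2, spans 0.36.

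Other genes linked to the same pathways were looked up in lists from textbook knowledge, chosen with earlier results of these data known. As a scale for the counts below, 1583 of all 11762 tested named genes had an unadjusted p under 0.05. None of the 4 other genes listed with PRC2, not all of them subunits, passed in limma, and 0 were under an unadjusted p of 0.05. The smallest p were those of Lcor at 0.18 (adjusted p = 0.55) and Eloa at 0.10 (adjusted p = 0.807). Of the 14 other PRC1 genes 0 passed and 1 was lower at an unadjusted p under 0.05, L3mbtl2, a subunit of a variant PRC1, at -0.37 (adjusted p = 0.25), followed by Pcgf6, which belongs to the same variant complex, at -0.20 (adjusted p = 0.501). L3mbtl2 had 8.03, 7.71 and 8.0 in YapCM-/- kidneys, against 8.40, 8.34 and 8.10 in control kidneys, with the groups apart.

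Among 21 other NuRD and corepressor genes 0 passed, with 2 above and 1 below control at an unadjusted p under 0.05. Sirt1, a NAD-dependent deacetylase, had 9.51, 9.93 and 9.66 in YapCM-/- kidneys, against 10.01, 10.21 and 10.04 in control kidneys, a difference of -0.38 (SE 0.112, adjusted p = 0.239) with the groups apart. Sin3a, the scaffold of another deacetylase complex, was at 0.39 (SE 0.149, adjusted p = 0.374) with overlapping groups. Sall1, a zinc-finger factor that recruits NuRD in nephron progenitors, was at -0.07 (adjusted p = 0.876). It was named, like Plk1 above, after its values were seen.

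Of 9 other DNA methylation genes 0 passed, with 1 above and 2 below control at an unadjusted p under 0.05. Gadd45g, a stress-response gene linked to demethylation, had 9.79, 9.90 and 9.96 in YapCM-/- kidneys, against 9.70, 9.57 and 9.51 in control kidneys, a difference of 0.29 (SE 0.085, adjusted p = 0.241). Mbd1, a methyl-CpG-binding repressor, had 9.34, 9.37 and 9.38 in YapCM-/- kidneys, against 9.60, 9.73 and 9.53 in control kidneys, a difference of -0.26 (SE 0.0797, adjusted p = 0.261). The groups were apart for both. Genes that oppose Polycomb, of the Trithorax group and the H3K27 demethylases, numbered 16, of which 0 passed. The share at an unadjusted p under 0.05 was 12.5%, no larger than that of all tested named genes, and both of the 2 genes were lower. These were Bap1, the deubiquitinase that removes the PRC1 mark, at -0.24 (adjusted p = 0.385), and its partner Asxl1 at -0.22 (adjusted p = 0.338).

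**Figure D4:**
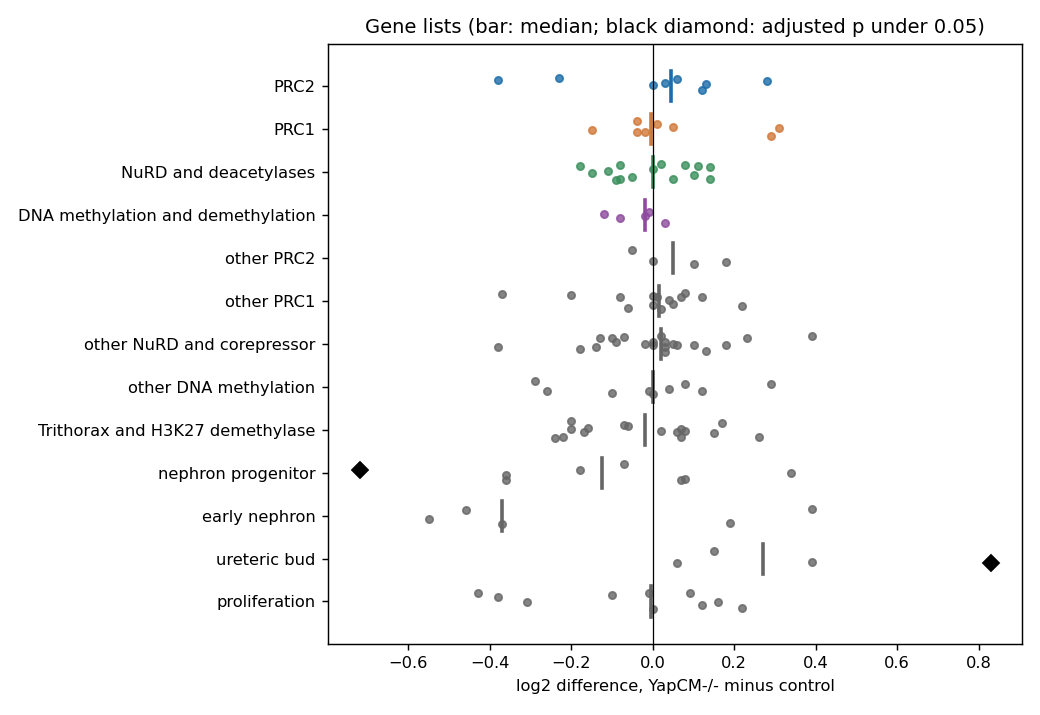
Log2 difference, YapCM-/- minus control, of the tested genes of the member complexes (coloured), of the other chromatin lists and of marker lists (grey), with a bar at the median of each list. Black diamonds are genes with an adjusted p under 0.05, Cited1 among progenitor markers and Ret among ureteric bud markers, and there is no diamond in any chromatin list.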

How the data were processed

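Total RNA was extracted with a column kit, amplified to biotinylated cRNA and hybridised to 1-colour bead arrays (steps per the labels' protocols). The deposited value table holds log2 signals of 45281 probes for 6 arrays. Its sorted columns differ by at most 0.00608, as after quantile normalization; software and background correction: not given in the sources used here. A deposited table before normalization was left out, because its 12 columns match no sample's labels.

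Probes were named through the platform annotation, updated by gene ID through RefSeq (GRCm38.p6), which changed 0 symbols; 34885 probes had 1 symbol, 18 several and 10378 none. The 50% of probes with the highest mean (above 7.29) were tested in R 4.3.3 with limma 3.58.1 (lmFit, eBayes), YapCM-/- minus control, two-sided, without covariates, with Benjamini-Hochberg adjustment over 22640 probes and a threshold of 0.05. The brightest tested probe stood for a gene. The fit was tested on simulated data with 200 of 22640 probes changed. It recovered 4.19% of changes of 0.25 on the log2 scale, 79.4% of those of 0.5 and 99.8% of those of 1. The false share was 8.36%, at an adjusted p threshold of 0.05. A change of 0.25 would thus mostly be missed, so the lack of a call says little about differences of that size. Recovery depends on how many probes change, which is not known for these kidneys, so the simulated shares may not carry over. In the data 40 probes were called, the largest unadjusted p among them being 8.33e-05 in limma. Larger differences went without a call too, such as -0.55 for an early nephron marker and -0.43 for Mcm7.

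Values by array are printed for Yap1, for a list of enzymes and core subunits and for the 3 members of each complex with the smallest p; Ring1's dimmer probe and a few genes of the other lists were added. In each other list, called genes are named or, with none called, the 2 of smallest p. The members and lists were chosen with earlier results of these data known. The other settings tried were other filters on dim probes, trend and robust options in eBayes, array weights, a replicate block, averaging the probes of a gene, leaving out each array, subtracting background, cyclic loess and an Xist covariate. Precision is limited by the number of arrays, 3 in each group. Promoter windows are RefSeq's; proteins were not used here.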

Additional observations from a re-analysis of the deposited data

How the results depend on the processing

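No member gene passed the threshold under any of the 16 other settings; the smallest adjusted p among them was 0.082, for Phf19 with the replicate number as a block. Phf19, Cbx6 and Phc2 kept their sign under all 16, as did Suz12, Rbbp7, Cbx2, Hdac2, Hdac3, Chd4, Mta1 and Dnmt1. Of these, all but Rbbp7, Hdac2 and Chd4 have 1 tested probe. Averaging the probes of a gene could not change the sign of those with 1. The count of probes called over the whole array, 40, was 26 when the filter kept 25% of probes, 64 with trend and robust options, 67 with the Xist covariate, 10 with the background subtracted, and from 6 to 27 with 1 array left out. With the replicate block it was 138. Same-numbered arrays correlated at 0.13, 0.14 and -0.02 in their deviations from the group means. The other pairs ran from -0.3 to 0.23, the highest being YapCM-/- replicate 1 with control replicate 3. Centred on groups of 3 arrays, these values cannot show whether the numbers pair the samples. Taking the mean of a gene's tested probes moved the medians to -0.03 for PRC2, 0.09 for PRC1 and -0.08 for DNA methylation genes. It also turned Ezh2 to -0.02, Eed to -0.04, Ring1 to 0.14 and Dnmt3b to -0.04. Array weights turned Rnf2 and Uhrf1 to 0.02, and cyclic loess turned Eed to -0.02; the cause was not tested. With 1 array left out the NuRD and deacetylase median ran from -0.07 to 0.04, and differences near 0 changed sign: Eed from -0.08 to 0.09, Rbbp4 from -0.06 to 0.12, Ring1 from -0.12 to 0.01, Rnf2 from -0.14 to 0.15, Mbd3 from -0.11 to 0.10, Uhrf1 from -0.10 to 0.04 and Tet1 from -0.05 to 0.01. None of these was called in any of the fits. Yap1 lost its call with the background subtracted (adjusted p = 0.0722) and when control replicate 1 (adjusted p = 0.0954) or 3 (adjusted p = 0.0518) was left out. Jarid2, Hdac9 and Tet3 have no value under the 25% filter. Detection above background was not measured here, so the values of dim probes such as those of Ezh1 and Dnmt3a may hold little signal.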

Other observations

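Kdm6a, an X-linked H3K27 demethylase that escapes X inactivation in mouse, split the arrays by their Xist signal and not by genotype. It had 9.84, 9.53 and 10.39 in YapCM-/- kidneys, against 9.57, 10.28 and 9.72 in control kidneys, and its 2 highest arrays, YapCM-/- replicate 3 and control replicate 2, were the 2 with high Xist, at 11.47 and 11.81. On the other 4 arrays Xist lay between 7.23 and 7.35. A second probe split the same way, with 10.06 and 9.98 on those arrays and at most 9.61 elsewhere, and the other tested probe, a dim one, did not. The genotype difference of Kdm6a was 0.06 (SE 0.221, limma adjusted p = 0.949), with a larger SE than that of any member. The X-linked members did not show this split: Rbbp7 had 10.23 and 9.83 on those arrays, Hdac6 8.39 and 8.42, and Hdac8 7.55 and 7.77, each inside the range of the other arrays or within 0.10 of it. Kdm6a was singled out here after its values were seen.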
